A study of Mus musculus with 53 samples.

Results

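This account compares ribosome-bound RNA with input RNA in hearts of CAG mice whose aorta had been banded. The features are the 10524 genes, of 34306 in the deposited table (30.7%), that reached at least 1 RPKM in at least 2 of the 4 libraries of banded hearts. RPKM divides a gene's reads by its transcript length in kilobases and by the depth of its library. The 4 libraries are 2 of TRAP RNA and 2 of input RNA, and 8886 of the genes reached 1 RPKM in all 4. Another 658 genes passed only through the 2 input libraries and 76 only through the 2 TRAP libraries. Those genes had to differ, so counts over such genes are not read as support for a difference. Of the genes left out, 12146 were at 0 in all 4 libraries.

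The series measured RNA of adult mouse hearts by sequencing of input RNA, the total cytoplasmic RNA, and of TRAP RNA, recovered by translating ribosome affinity purification. CAG mice carry the ribosome tag in every cell lineage, according to the labels of the series' first deposit. In banded mice, male per the treatment protocol, the ascending aorta was tied against a needle, which narrowed it and loaded the left ventricle with pressure. Sham mice had the same operation with no ligature, and also gave 2 TRAP and 2 input libraries. The time from operation to collection, the number of mice per library and the strain of these mice were not given in the sources used here (a mixed 129/C57BL background is given for the first deposit). RNA was pooled, selected on oligo(dT) in repeated rounds, primed with random hexamers and made into libraries with no strand information.

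In TRAP, a ribosomal protein carries an affinity tag, so that ribosomes can be pulled from a lysate together with the messenger RNA they hold. Messages with many ribosomes are recovered well, while messages held in silent particles, RNA of mitochondria, which have ribosomes of their own, and RNA that is not translated are left behind. A difference between TRAP and input is a ratio of both fractions and can also follow from the cells that carry the tag. In whole hearts, fewer tagged cells of a type and less ribosome-bound RNA per cell cannot be told apart.

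The banded libraries held 37940589 and 47591033 reads in TRAP and 28621316 and 36151104 in input. The pair of banded TRAP libraries stood apart from each other more than any other pair of the operated hearts. Between them, 355 of 10524 genes differed by more than 1 on the log2(RPKM + 1) scale, and 330 of these were higher in TRAP 1. Only 21 genes did so between the banded inputs, 42 between the sham TRAP and 10 between the sham inputs. The fit therefore gave each group its own variance weight, which was 0.283 for banded TRAP and 1.14 for banded input. Each result is given with its dependence on single libraries. A gene called higher or lower below kept its call without each of the 4 banded libraries in turn, unless the library that ended it is named with the adjusted p found without it. For gene groups, 4 counts in parentheses after a count are those without TRAP 1, TRAP 2, input 1 and input 2. Nothing says that the libraries of a group come from separate mice, so each p-value here refers to the spread among libraries alone, which may be technical.

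After banding, 1251 genes (11.9%) were higher in TRAP than in input and 1804 (17.1%) were lower at an adjusted p under 0.05, by limma on log2(RPKM + 1). The median difference over all 10524 genes was -0.09 on that scale, and 7469 genes were not called. Large differences lay mainly on the lower side, where 458 called genes differed by more than 1 against 138 on the higher side. Of these, 141 of the lower genes had passed the filter only through input and 4 of the higher only through TRAP, which leaves 317 and 134. Of all calls, 378 of the lower genes had passed only through input and 15 of the higher only through TRAP. The direction of small differences depended on scaling. Of all calls, 40.9% were higher with RPKM as deposited, 21.2% after rescaling without the most abundant genes, 54.2% after quantile normalization and 62.7% with each library centred on its median. These alternatives moved the median of all genes by -0.14, 0.14 and 0.16. Of the 3055 calls, 702 (263 higher and 439 lower) held without each banded library in turn. Without TRAP 2, the counts fell to 494 higher and 559 lower, and without TRAP 1 to 560 higher and 1010 lower. Without input 1 they were 862 and 1116, and without input 2 they were 873 and 1506.

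**Figure D1:**
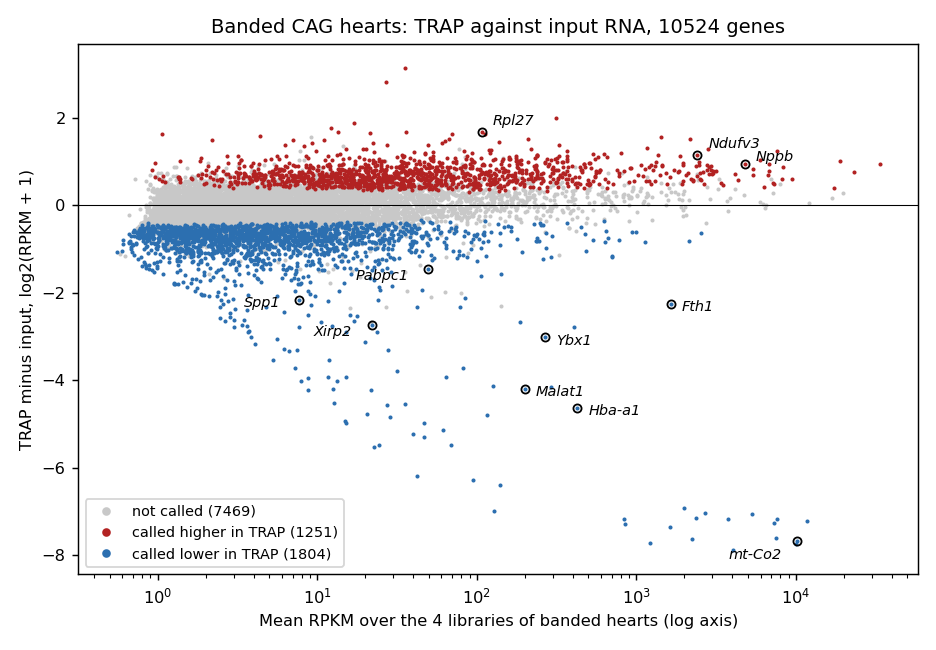
Difference between TRAP and input on the log2(RPKM + 1) scale (vertical axis) against the mean RPKM over the 4 banded libraries (horizontal log axis) for 10524 genes, with called genes in red (1251 higher) and blue (1804 lower) and labelled genes circled. Mitochondrially encoded RNAs form the group near -7 at the lower right, and the lower left edge is the limit that adding 1 to each value sets for genes near 0 in TRAP.

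RNA of the mitochondrial genome was nearly absent from ribosome-bound RNA. It took 13.7% and 15.9% of the reads of banded input and 0.138% and 0.0587% of those of banded TRAP. All 34 mitochondrially encoded genes tested were lower, with a median of -6.61, and of these 11 had passed the filter only through input. The count lower was 27, 23, 34 and 30 when 1 library was left out. mt-Co2, a core subunit of cytochrome c oxidase, measured 128 and 75.6 RPKM in TRAP and 18809 and 21864 RPKM in input. mt-Nd3, a subunit of complex I, measured 26.5 and 40.3 RPKM in TRAP and 9154 and 6886 RPKM in input, the largest difference of the comparison at -7.88 (SE 0.52, adjusted p = 0.00012 by limma). Genes with the largest called decreases were ranked at a mean of at least 5 RPKM, among those with no overlap of the groups and a call that held without each banded library. Of the first 15, 14 were mitochondrially encoded: besides these, mt-Cytb, mt-Atp6, mt-Co3, mt-Rnr2, mt-Nd4l, mt-Nd1, mt-Co1, mt-Nd6, mt-Rnr1, mt-Nd5, mt-Nd4 and mt-Ts1. The other was AC161763.1, a gene model of 71 bases, at 1.11 and 0.888 RPKM in TRAP and 226 and 286 RPKM in input. The ribosomal RNAs of the mitochondrion, mt-Rnr1 and mt-Rnr2, were 155-fold and 169-fold lower in TRAP.

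Nuclear and other noncoding RNA was also low in TRAP. Malat1, a long noncoding RNA of nuclear speckles, measured 26.999 and 14.2 RPKM in TRAP and 364 and 392 RPKM in input, a 18.4-fold lower mean (adjusted p = 3.9e-05, limma). Neat1, the scaffold of paraspeckles, measured 3.59 and 2.23 RPKM in TRAP and 27.8 and 27.04 RPKM in input, and H19, an imprinted noncoding RNA, 2.73 and 6.46 RPKM in TRAP and 47.4 and 54.8 RPKM in input. In all of these, both TRAP libraries lay below both inputs. They were the 3 called genes of 5 tested on the list of nuclear and regulatory noncoding RNA, and 0 were higher. Genes named as small nuclear, nucleolar, Cajal body or microRNA were put in 1 group after their values were seen. Of 942 such models 41 were tested, 25 were lower and 2 higher, with a median of -1.44, and 20 had passed only through input. Without 1 library, 15, 12, 23 and 24 of them were lower. 7SK, which holds the elongation factor P-TEFb in an inactive complex, measured 0.714 and 0.399 RPKM in TRAP and 13.3 and 15.4 RPKM in input. It had passed the filter only through input, so it had to differ. Scarna17, a Cajal body RNA, measured 2.64 and 4.05 RPKM in TRAP and 71.1 and 48.01 RPKM in input, and U4atac, part of the minor spliceosome, 1.898 and 0.336 RPKM in TRAP and 24.9 and 33.4 RPKM in input. Of 8 host genes of small nucleolar RNAs tested, 2 were lower (1, 1, 1 and 1) and 2 higher (0, 2, 2 and 2), with a median of -0.16. The shares over all genes tested were 17.1% lower and 11.9% higher. The lower host genes were Snhg9 and Snhg7, of which Snhg7 had passed only through input. Only 1 host gene was lower without each banded library in turn, so these 2 calls did not both hold in any of those fits. Snhg3 and Snhg4 were higher, at 2.28-fold and 2.04-fold, both lost without TRAP 1 (adjusted p = 0.18 and 0.084, limma). Haemoglobin messages of red blood cells took 0.108% and 0.136% of input reads and 0.00440% and 0.00763% of TRAP reads, and Hba-a1 measured 21.7 and 47.3 RPKM in TRAP and 731 and 910.1 RPKM in input. Outside the mitochondrial list, and again chosen after values were seen, the largest decreases by the same rule were those of the gene models AC161763.1, Gm13341, Gm10925, Gm10222, Gm11408 and Gm13339, of 4 other models of 71 bases (AC134325.1, AC118255.1, AC161805.1 and AL691456.1), of the haemoglobin genes Hba-a1, Hba-a2 and Hbb-b1, of Malat1 and of snoU90. Gm13341 measured 3.53 and 1.38 RPKM in TRAP and 298 and 256 RPKM in input and Gm10925 3.04 and 1.198 RPKM in TRAP and 109.5 and 161 RPKM in input. Reads of these gene models may be shared with near-identical genes, and whether with mitochondrially encoded ones was not tested.

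The ferritin messages were poorly recovered in TRAP. Of the 764 genes with a mean of at least 100 RPKM outside the mitochondrial list, 11 had a lower difference than Fth1. Among them were Malat1, Ybx1, the haemoglobin genes and the gene models AC161763.1, Gm13341 and Gm10222. Ferritin is the shell that stores cell iron, and its messages are known for an iron-responsive element near their 5′ end, a hairpin at which iron regulatory proteins can stop initiation. Fth1, the heavy chain, measured 617 and 531 RPKM in TRAP and 2746 and 2706 RPKM in input, a 4.75-fold lower mean. Its difference was -2.25 (SE 0.12, adjusted p = 4.9e-05, limma). Ftl1, the light chain, measured 21.2 and 30.1 RPKM in TRAP and 139 and 123 RPKM in input and was 5.12-fold lower (difference -2.33, SE 0.17, adjusted p = 0.00021, limma). In both, the higher of the TRAP libraries lay far below the lower input. Ferritin genes have many near-identical copies, and reads shared with them could be split.

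Epas1 and Alas2 are other messages known to carry such an element near the 5′ end, and both were called lower. Epas1, the hypoxia factor HIF-2α, measured 16.9 and 15.9 RPKM in TRAP and 31.6 and 29.6 RPKM in input (difference -0.86, adjusted p = 0.0027, limma). Alas2, the first enzyme of haem synthesis in red cells, measured 0.155 and 0.309 RPKM in TRAP and 5.51 and 4.36 RPKM in input and is also an erythroid marker. It had passed the filter only through input, so it had to differ. Ferroportin, Slc40a1, lay below the filter. Tfrc, the transferrin receptor, whose elements lie in the 3′ untranslated region, measured 2.17 and 0.791 RPKM in TRAP and 2.26 and 3.46 RPKM in input and was not called (adjusted p = 0.26, limma). Over the whole list of iron handling, 14 genes of 19 were tested, 6 were lower (6, 5, 6 and 6 with 1 library left out) and 1 was higher, with a median of -0.46 against -0.09 over all genes, and without Alas2 the median was -0.25. Beside those named, the list's lower genes were Cp (ceruloplasmin, -1.36) and Trf (transferrin, -1.09, adjusted p = 0.05 without TRAP 2, limma). Its higher gene was Hfe2 (hemojuvelin, a coreceptor of the hepcidin pathway), at 145 and 126 RPKM in TRAP and 84.8 and 73.8 RPKM in input, lost without TRAP 1 (adjusted p = 0.057, limma).

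A few single messages were as low in TRAP as the ferritins or lower. These were singled out after their values were seen. Ybx1, which encodes an abundant protein that coats messenger RNA, measured 53.7 and 62.2 RPKM in TRAP and 485 and 465 RPKM in input, a 8.201-fold lower mean (difference -3.02, SE 0.14, adjusted p = 2.3e-05, limma). Wdr92, a WD repeat protein, measured 5.14 and 4.44 RPKM in TRAP and 44.7 and 39.8 RPKM in input and was 8.82-fold lower. Zc3h12a, an RNase that degrades inflammatory messages, measured 2.36 and 1.93 RPKM in TRAP and 17.8 and 20.4 RPKM in input and was 8.899-fold lower. Spop, an adaptor of a cullin 3 ubiquitin ligase, measured 13.2 and 13.3 RPKM in TRAP and 67.7 and 74.1 RPKM in input and was 5.35-fold lower. For each of the 4, both TRAP libraries lay close together and far below both inputs. The same genes were low in TRAP of sham hearts, with differences of -2.99, -2.33, -2.61 and -2.40.

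**Figure D2:**
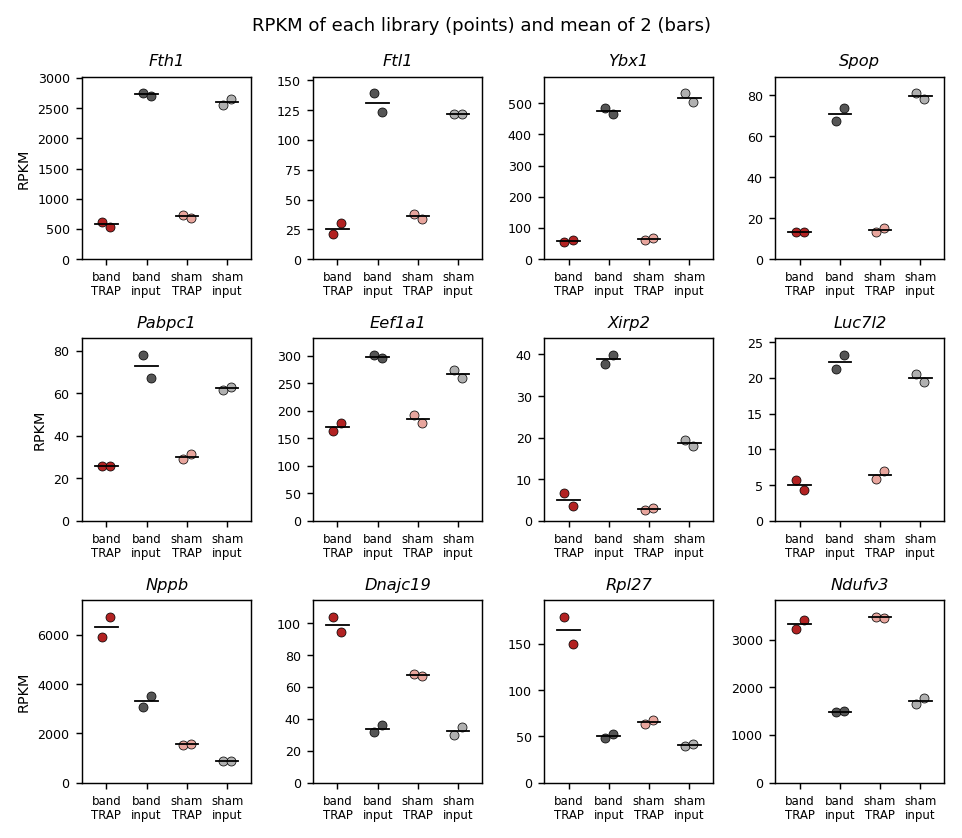
RPKM of each library (points) with the mean of 2 (bars) for 12 genes in banded TRAP, banded input, sham TRAP and sham input, each panel with its own linear axis from 0. The first 8 genes lie lower in TRAP than in input and the last 4 higher, in banded and in sham hearts, with no overlap of the points.

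Messages of the translation machinery itself fell on both sides. Pabpc1, the main cytoplasmic poly(A)-binding protein, measured 25.7 and 25.7 RPKM in TRAP and 78.1 and 67.3 RPKM in input, a 2.83-fold lower mean (adjusted p = 0.00085, limma). Its relative Pabpc4 measured 158 and 212 RPKM in TRAP and 369 and 350.4 RPKM in input, and the elongation factor Eef1a1 164 and 178 RPKM in TRAP and 302 and 296 RPKM in input, also lower. These 3 were the lower genes among 18 elongation, release and poly(A)-binding factors (3, 3, 3 and 3), of which 1 was higher (1, 0, 0 and 0). The messages of Pabpc1 and Eef1a1 are known members of the class with a terminal oligopyrimidine tract, as are those of the ribosomal proteins. Of 52 initiation factors tested, 6 were lower (6, 2, 3 and 5) and 4 higher (1, 0, 1 and 1), with a median of -0.10. Eif3a, the largest subunit of the factor eIF3, was lower at 18.8 and 16.5 RPKM in TRAP and 45.2 and 40.1 RPKM in input, and Eif5b, which joins the ribosomal subunits, at 24.5 and 25.1 RPKM in TRAP and 41.2 and 37.5 RPKM in input. Of 22 aminoacyl-tRNA synthetases, 2 were lower (1, 0, 0 and 5) and 0 higher. Over all genes tested, 17.1% were lower and 11.9% higher, with a median of -0.09. The counts of initiation factors and synthetases do not exceed these shares.

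Cytosolic ribosomal proteins, in contrast to Pabpc1 and Eef1a1, were mostly near or above equality. Of 83 tested, 25 were higher and 4 lower, with a median of 0.26. The count higher was 7, 8, 16 and 16 with 1 library left out, and quantile normalization gave 13 higher and 5 lower. Rpl27 stood out at 179 and 149.8 RPKM in TRAP and 48.2 and 52.5 RPKM in input, 3.27-fold higher (difference 1.69, SE 0.14, adjusted p = 0.00038, limma). Rps27l, a relative of Rps27, measured 532 and 398 RPKM in TRAP and 233 and 226 RPKM in input. Rps23 was higher at 393 and 269 RPKM in TRAP and 129 and 167 RPKM in input but not without TRAP 1 (adjusted p = 0.098, limma). The lower genes were Rplp0 (-0.66), Rpsa (-0.59), Rpl12 (-0.41) and Rps2 (-0.49). Without TRAP 1 their adjusted p by limma was 0.08, 0.068, 0.22 and 0.085, so none of these calls held, and that of Rps2 was also lost without TRAP 2 and that of Rpl12 without any of the 4. Rpl10a, the ribosomal protein known to carry the tag in this kind of mouse, measured 9.99 and 9.14 RPKM in TRAP and 9.07 and 9.25 RPKM in input, a difference of 0.06 with no call. Reads of ribosomal proteins may be shared with their pseudogenes, of which 79 were tested (10 higher, 13 lower, median 0.13; higher 4, 1, 6 and 4 and lower 11, 9, 12 and 11 with 1 library left out).

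No gene of the list for the mitochondrial ribosome was called lower in TRAP. Mitochondrial ribosomes translate the messages of the mitochondrial genome and are built from proteins made in the cytosol. Of 79 tested, 43 were higher and 0 lower (26, 27, 35 and 38 higher), with a median of 0.49 that stayed between 0.31 and 0.65 under the 3 other scalings. In all, 76 of the 79 lay above the median of all genes. The 79 include 4 pseudogenes, and without them 41 of 75 were higher (24, 26, 33 and 36), with a median of 0.49. Mrps21, a protein of the small subunit, measured 1621 and 1709 RPKM in TRAP and 676 and 671 RPKM in input, 2.47-fold higher (adjusted p = 0.003, limma). Mrpl54, Mrpl20 and Mrpl11, of the large subunit, were 1.999-fold, 1.98-fold and 1.95-fold higher. Each had both TRAP libraries above both inputs.

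Messages for the import of proteins into mitochondria went the same way, with 17 of 26 higher (11, 9, 13 and 14), 1 lower (1, 0, 0 and 0) and a median of 0.61. Dnajc19, a cochaperone of the inner membrane import motor, measured 104 and 94.1 RPKM in TRAP and 31.8 and 35.99 RPKM in input and was 2.92-fold higher (adjusted p = 0.0013, limma). Tomm22, the receptor at the core of the outer membrane translocase, measured 247 and 240.3 RPKM in TRAP and 109 and 111 RPKM in input, with hardly any spread within a group. Timm17a, of the inner membrane channel, measured 545 and 471 RPKM in TRAP and 243 and 220.2 RPKM in input. The small receptor Tomm20, the translocase subunit Tomm5 and the intermembrane chaperone Timm8b were 1.76-fold, 1.83-fold and 1.86-fold higher.

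All calls among nuclear subunits of the respiratory chain were on the higher side, and their share differed between the complexes. In complex I, which takes electrons from NADH, 29 of 37 genes were higher and 0 lower (21, 12, 24 and 26), with a median of 0.70. Ndufv3 measured 3229 and 3419 RPKM in TRAP and 1483 and 1502 RPKM in input and Ndufa13 1784 and 1983 RPKM in TRAP and 828 and 871 RPKM in input, 2.23-fold and 2.22-fold higher. Complex II, the only one with no mitochondrially encoded subunit, had 2 of 4 genes higher (1, 1, 2 and 2), 0 of 4 after quantile normalization, and a median of 0.38, and Sdhb, its iron-sulphur subunit, was lost without TRAP 2 (adjusted p = 0.099, limma). In complex III, 5 of 9 were higher (5, 0, 4 and 5) and the median was 0.57. Uqcrb of complex III read 535 and 45.2 RPKM in TRAP against 195 and 289 in input, so its TRAP libraries lay on opposite sides of both inputs.

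Complex IV, cytochrome c oxidase, had the highest median of the 5 complexes, 0.85, with 13 of 16 genes higher and 0 lower (7, 6, 10 and 13). Cox8a measured 2569 and 2566 RPKM in TRAP and 1166 and 1184 RPKM in input, and Cox5b 6729 and 7098 RPKM in TRAP and 3844 and 3951 RPKM in input. Cox6a2, the heart and muscle isoform of its subunit, was the most abundant of the genes named here at 29286 and 29069 RPKM in TRAP and 17221 and 17090 RPKM in input, 1.701-fold higher. Cox7c was 2.36-fold higher but not called without TRAP 2 (adjusted p = 0.079, limma). In complex V, the ATP synthase, 8 of 18 were higher (4, 6, 6 and 7) with a median of 0.52, among them Atp5j2 at 7902 and 8054 RPKM in TRAP and 4050 and 3744 RPKM in input and Atp5e, 1.75-fold. Quantile normalization left 4 of the 18 higher.

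Genes of the citric acid cycle, of fatty acid uptake and oxidation and of glycolysis were not shifted in the same way. Their counts higher lie near the 11.9% over all genes tested, of which 17.1% were lower. Of 17 citric acid cycle genes 2 were higher (0, 0, 1 and 1) and 0 lower, with a median of 0.12 that became -0.06 after rescaling and -0.05 after quantile normalization. Of 24 genes of fatty acid uptake and oxidation 3 were higher (0, 1, 4 and 1) and 0 lower, with a median of 0.02 that became -0.14 after rescaling and -0.06 after quantile normalization. Fabp3, the fatty acid binding protein of heart, measured 12418 and 9283 RPKM in TRAP and 5892 and 5767 RPKM in input, lost without TRAP 1 (adjusted p = 0.057, limma). Of 20 genes of glycolysis 2 were higher (0, 1, 0 and 0) and 1 lower (0, 2, 1 and 1).

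More messages of the sarcomere were called lower than higher in each of the 3 lists that hold them. Fewer were called lower once a trend over transcript length was removed. The list of the Z disc and giant proteins then had 6 lower and 4 higher, with a median of -0.12. The thick filament then had 1 lower and 0 higher, and the thin filament 4 lower and 0 higher. Of 25 genes of the Z disc and giant proteins, 11 were lower (7, 7, 7 and 10) and 3 higher (2, 2, 3 and 2), with a median of -0.32. Xirp2, an actin-binding repeat protein of the intercalated disc with a transcript of 11979 bases, measured 6.601 and 3.65 RPKM in TRAP and 37.7 and 39.9 RPKM in input, 7.57-fold lower (adjusted p = 0.00024, limma). Cmya5, also known as myospryn (11850 bases), measured 3.29 and 2.78 RPKM in TRAP and 13.98 and 11.5 RPKM in input. Ttn, the giant spring titin (106824 bases), measured 0.906 and 0.547 RPKM in TRAP and 3.58 and 3.16 RPKM in input. Ttn had passed the filter only through input, so it had to differ, and without it 10 of 24 genes of the list were lower. The difference of Ttn was -1.35 and became 0.12 once a trend over transcript length was removed. Ankrd23 and Myoz2, short by comparison at 1954 and 2411 bases, were lower as well, 2.11-fold and 1.78-fold. Csrp3, the muscle LIM protein, was higher at 6382 and 6894 RPKM in TRAP and 4026 and 4196 RPKM in input.

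Of 11 thick filament genes, 4 were lower (3, 3, 4 and 4) and 0 higher. Myh7b measured 1.23 and 1.79 RPKM in TRAP and 7.19 and 7.57 RPKM in input, 4.896-fold lower. The adult heavy chain Myh6 measured 1336 and 1763 RPKM in TRAP and 2804 and 2594 RPKM in input, lower but lost without TRAP 1 (adjusted p = 0.056, limma), and Myh7, the chain that rises in overloaded mouse hearts, 382 and 536 RPKM in TRAP and 837 and 776 RPKM in input, lower. Of 11 thin filament genes, 5 were lower (3, 1, 3 and 3) and 2 higher (0, 0, 0 and 1). Tnnc1, cardiac troponin C, was 1.397-fold higher, lost without TRAP 1 (adjusted p = 0.085, limma), TRAP 2 (0.16) or input 1 (0.069). In calcium cycling, 3 of 21 genes were lower (3, 0, 3 and 3) and 1 higher (0, 2, 0 and 0), Ryr2, the calcium release channel, being lower at 8.19 and 4.05 RPKM in TRAP and 15.1 and 12.3 RPKM in input and lost without TRAP 2 (adjusted p = 0.12, limma). Atp2a2, the calcium pump, measured 793 and 614 RPKM in TRAP and 548 and 493 RPKM in input and was not called (adjusted p = 0.075, limma). Of 21 ion channel genes, 3 were higher (1, 0, 1 and 1) and 0 lower, where 11.9% of all genes tested were higher and 17.1% lower.

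Regulators of splicing were lower as a group. Of 49 tested, 27 were lower and 0 higher, with a median of -0.63, and the count lower was 26, 8, 17 and 22 with 1 library left out, so the count depended most on TRAP 2. Luc7l2, which binds the U1 particle, measured 5.72 and 4.33 RPKM in TRAP and 21.2 and 23.2 RPKM in input, 4.42-fold lower (adjusted p = 0.00054, limma). Pnn, a splicing protein of nuclear speckles and desmosomes, measured 4.96 and 2.502 RPKM in TRAP and 13.9 and 14.8 RPKM in input. The serine- and arginine-rich protein Srsf11 measured 6.26 and 4.49 RPKM in TRAP and 16.9 and 16.3 RPKM in input, and the U1-associated Rbm25 15.2 and 11.2 RPKM in TRAP and 34.7 and 31.3 RPKM in input. In these 4 genes, every TRAP value lay below every input value.

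Immediate early genes, induced within minutes of a stimulus, showed 13 of 25 lower and 0 higher, with a median of -0.54 (5, 3, 4 and 11). Klf6, a zinc finger factor, measured 7.48 and 5.91 RPKM in TRAP and 15.6 and 14.2 RPKM in input, and Zfp36l2, which destabilizes AU-rich messages, 2.17 and 1.62 RPKM in TRAP and 5.33 and 5.27 RPKM in input. Jun was lower at -0.70 but not without TRAP 1 (adjusted p = 0.053, limma). Among 26 cardiac transcription factors, 5 were lower (6, 1, 4 and 4) and 2 higher (2, 1, 2 and 1). The counts for these factors lie near the shares over all genes tested, 17.1% lower and 11.9% higher. Ppargc1b, a coactivator of mitochondrial genes, was lower at 4.58 and 4.66 RPKM in TRAP and 11.04 and 9.61 RPKM in input. Hopx, a homeodomain-only cofactor, was higher at 126 and 95.1 RPKM in TRAP and 59.4 and 56.8 RPKM in input.

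Messages of matrix, fibroblasts and leukocytes were lower in TRAP. Of 49 genes of the extracellular matrix, 40 were lower and 0 higher, with a median of -0.82 (31, 18, 34 and 39). Col1a1, a chain of fibrillar collagen, measured 13.02 and 11.5 RPKM in TRAP and 49.04 and 44.2 RPKM in input, and Bgn, the proteoglycan biglycan, 50.1 and 53.3 RPKM in TRAP and 154 and 166 RPKM in input, 3.09-fold lower. The marker genes of fibroblasts gave 16 of 20 lower (12, 9, 13 and 16; 14 of 18 without the 2 genes that passed only through input), 0 higher and a median of -0.90, and their summed level over the 21 listed was 339 and 271 RPKM in TRAP and 709.5 and 665 RPKM in input. Macrophage markers gave 15 of 19 lower (12, 7, 15 and 15), 0 higher and a median of -1.01, with a summed level of 451 and 383 RPKM against 846 and 709.6 RPKM. Of the 15, 4 had passed only through input, and without these 11 of 15 were lower. Csf1r, the receptor for macrophage growth factor, measured 5.07 and 4.36 RPKM in TRAP and 13.6 and 12.1 RPKM in input, and Aif1, a calcium-binding protein of macrophages, 5.21 and 5.09 RPKM in TRAP and 18.6 and 14.1 RPKM in input. All 13 lymphocyte markers lay below the filter. So did the mast cell markers, and the 3 genes tested of the neutrophil and mast cell list were the neutrophil genes S100a8, S100a9 and Retnlg. Of these, 1 had passed only through input, so it had to differ. All 3 neutrophil and mast cell markers tested were lower (1, 1, 1 and 2), S100a9 at 4.88 and 3.401 RPKM in TRAP and 30.6 and 25.3 RPKM in input.

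Medians of cardiomyocyte and endothelial markers were closer to equality than those of fibroblast and macrophage markers. The shares over all genes tested were 11.9% higher and 17.1% lower, with a median of -0.09. Of 25 cardiomyocyte markers, 7 were higher (2, 4, 3 and 4) and 5 lower (3, 3, 4 and 5), with a median of 0.13 that turned to -0.03 after rescaling and -0.06 after quantile normalization, and all 25 passed the filter. Of the 5 lower cardiomyocyte markers, 1 had passed only through input, and without it 4 of 24 were lower. The summed level of cardiomyocyte markers was 144820 and 146030 RPKM in TRAP and 112720 and 111700 RPKM in input. Of 29 endothelial markers, 3 were lower (2, 2, 3 and 3) and 1 higher (0, 1, 0 and 0), with a median of -0.13. Erg, a transcription factor of endothelium, and Egfl7, a secreted endothelial protein, were 2.26-fold and 1.86-fold lower. The summed level of endothelial markers was 1995 and 1170 RPKM in TRAP, on both sides of the 1360 and 1228 RPKM of input. For smooth muscle markers the median was -0.68. Their summed level was 597 and 684 RPKM in TRAP and 1037 and 946 RPKM in input. Smooth muscle markers were lower in 5 of 9 genes (1, 3, 5 and 5) and pericyte markers in 3 of 10 (2, 1, 3 and 3), with Pdgfrb at 4.603 and 4.77 RPKM in TRAP and 10.2 and 9.57 RPKM in input. Of the other cell types listed, 2 of 3 epicardial markers (1, 1, 2 and 2), 2 of 7 endocardial and lymphatic (1, 1, 3 and 2) and 1 of 7 atrial (0, 1, 0 and 1) were lower, 0 were higher, and the 3 adipocyte, 2 platelet, 2 Schwann cell and 4 skeletal muscle genes tested were not called. The part that the shares of tagged cells may have in the lower levels of fibroblast and leukocyte genes was not tested.

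Genes that report pressure overload split in 2 directions. Nppb, which encodes B-type natriuretic peptide secreted by strained myocytes, measured 5925 and 6735 RPKM in TRAP and 3081 and 3514 RPKM in input, 1.92-fold higher (difference 0.94, SE 0.14, adjusted p = 0.0035, limma). Nppa, the atrial natriuretic peptide, measured 194 and 571 RPKM in TRAP and 261 and 459 RPKM in input, so that the libraries of each fraction differed more than the fractions did. Of the 31 genes known to rise under overload that were tested, 17 were lower in TRAP (10, 8, 13 and 15) and 5 higher (1, 2, 5 and 2), with a median of -0.56. Spp1, the cytokine osteopontin, measured 2.52 and 1.83 RPKM in TRAP and 14.2 and 11.97 RPKM in input, 6.03-fold lower (adjusted p = 0.00029, limma). Lgals3, the lectin galectin-3 of macrophages, measured 2.88 and 3.24 RPKM in TRAP and 17.9 and 14.4 RPKM in input, and the protease inhibitor Timp1 50.8 and 55.8 RPKM in TRAP and 126 and 116 RPKM in input, both lower. Mfap5, a microfibril protein, and Hmox1, haem oxygenase, were 2.78-fold and 2.12-fold lower. Beside Nppb, the higher genes were Gdf15, Mt1, Mt2 and Tnfrsf12a, and each of these calls was lost without TRAP 1, among other libraries (adjusted p = 0.097, 0.093, 0.19 and 0.056, limma).

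Inflammatory messages were lower in 18 of 29 genes (10, 9, 15 and 16) and higher in 0, with a median of -0.70. Of the 29, 6 had passed only through input, and without these 14 of 23 were lower. In each list from the sarcomere on, other than those with such counts beside them, at most 2 genes had passed only through input. Ccl6, a chemokine, measured 7.43 and 6.27 RPKM in TRAP and 20.2 and 19.4 RPKM in input, and Nfkbia, the inhibitor of NF-κB, 12.9 and 12.3 RPKM in TRAP and 28.8 and 26.1 RPKM in input. Il1b, interleukin 1β, lay at 0.214 and 0.1704 RPKM in TRAP and 2.06 and 1.71 RPKM in input and had passed only through input. Complement and antigen presentation gave 10 of 21 lower (7, 6, 10 and 12) and 0 higher, among them Cd74, the invariant chain of class II molecules, at 48.1 and 69.97 RPKM in TRAP and 143 and 139 RPKM in input, and C3, the central complement protein, at 4.03 and 4.19 RPKM in TRAP and 10.5 and 9.296 RPKM in input. Growth factors and their receptors gave 13 of 37 lower (6, 3, 8 and 9) and 1 higher. Igf2 was 2.72-fold lower and Igfbp4 2.02-fold lower, while Vegfb, a vascular growth factor abundant in myocytes, was higher at 417 and 534 RPKM in TRAP and 319 and 319 RPKM in input and lost without TRAP 2 (adjusted p = 0.12, limma). Cell cycle genes gave 8 of 13 lower and 1 higher (lower 1, 2, 5 and 6), so that few of these calls held. Of the 8, 4 had passed only through input, which leaves 4 of 9.

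Several other groups moved little or both ways, and their counts stand beside 17.1% lower and 11.9% higher over all genes tested. The list of selenoproteins, whose messages recode a stop codon, also holds the selenium-binding protein Selenbp1, which does not. It gave 4 of 13 genes higher (4, 1, 3 and 3) and 0 lower, among them Gpx4, the lipid peroxidase, at 1886 and 1968 RPKM in TRAP and 1103 and 1187 RPKM in input, with a median of 0.11 that became -0.07 after rescaling. Without Selenbp1, 4 of 12 were higher and the median was 0.16. Replication-dependent histones, whose main transcripts lack a poly(A) tail, gave 4 of 12 higher (3, 1, 4 and 3) and 1 lower (1, 1, 1 and 1). Hist1h2bc was higher at 201 and 145 RPKM in TRAP and 62.9 and 79.3 RPKM in input, lost without TRAP 1 (adjusted p = 0.086, limma), and Hist1h2af lower at 0.991 and 0.737 RPKM in TRAP and 4.73 and 5.55 RPKM in input, genes whose copies share reads. Hist1h2af was among 2 histone genes that had passed only through input, so it had to differ, and of the other 10 tested 0 were lower. Stress genes under upstream reading frames gave 3 of 22 lower (1, 1, 1 and 2), among them Atf5 at 30.2 and 37.7 RPKM in TRAP and 56.4 and 58.1 RPKM in input, and 1 higher (1, 0, 0 and 0). Endoplasmic reticulum chaperones and the translocon gave 7 of 34 higher (3, 2, 3 and 3) and 5 lower (6, 2, 3 and 4). Srp14, of the signal recognition particle, was higher at 395 and 330.3 RPKM in TRAP and 201 and 186 RPKM in input, and the chaperones Calr and Sdf2l1 were 1.54-fold and 1.91-fold lower. Cytosolic chaperones gave 6 of 30 lower (4, 2, 4 and 5) and 2 higher (1, 0, 2 and 1). The proteasome gave 5 of 37 lower (4, 0, 2 and 4) and 4 higher (1, 1, 3 and 3), and lysosomal enzymes 5 of 24 lower (2, 2, 3 and 4) and 4 higher (3, 0, 2 and 2). Among ubiquitin ligases of muscle, 4 of 19 were higher (3, 2, 1 and 2), with Stub1, a chaperone-linked ligase, at 76.5 and 84.3 RPKM in TRAP and 42.5 and 38.4 RPKM in input, and 4 lower (3, 1, 1 and 2), with Trim63, the atrophy ligase MuRF1, at 74.2 and 75.9 RPKM in TRAP and 131 and 116 RPKM in input. G protein subunits gave 3 of 18 lower (1, 0, 1 and 1) and 2 higher (0, 1, 1 and 1), among the latter Gng5 at 604 and 399 RPKM in TRAP and 122 and 123 RPKM in input and lost without TRAP 1 (adjusted p = 0.055, limma).

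**Figure D3:**
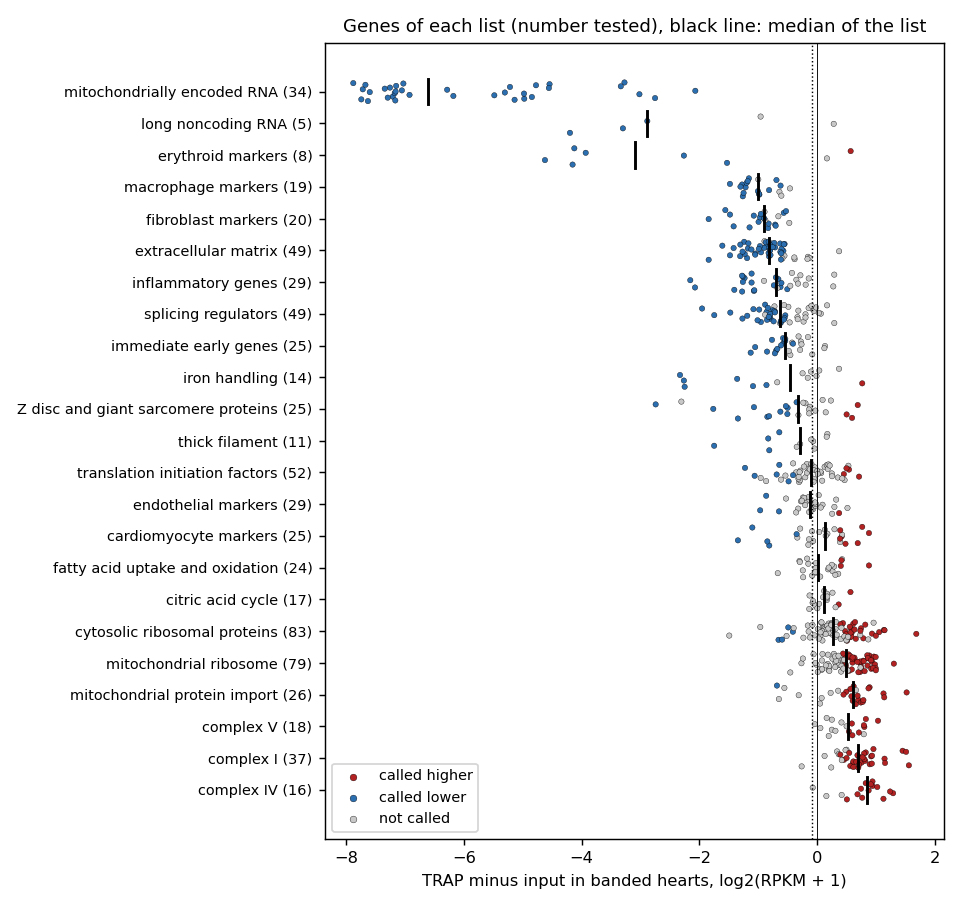
Differences between TRAP and input on the log2(RPKM + 1) scale in banded hearts for the genes of 23 lists, 1 point per gene, red where called higher and blue where called lower, with the median of each list as a black line and the median of all genes (-0.09) as a dotted line. Mitochondrially encoded RNA lies lowest, matrix, leukocyte and splicing genes lie left of 0, and nuclear subunits of complexes I, IV and V, the mitochondrial ribosome and protein import lie right of it.

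The genes with the largest called increases were taken at a mean of at least 5 RPKM, with no overlap of the groups and a call that held without each banded library. These 15 genes had TRAP means 2.61-fold to 9.79-fold over input. Gm10086, a gene model of 408 bases, led with 61.4 and 68.1 RPKM in TRAP and 4.97 and 8.27 RPKM in input. Another 6 were also models with no other name, Gm11828, Gm11518, Gm15516, Gm10233, Gm7206 and Gm6444, whose reads may be shared with near-identical genes. The named genes were Rpl27 and Dnajc19, described above, and Ttc32, a tetratricopeptide repeat protein, at 65.2 and 46.1 RPKM in TRAP and 16.4 and 16.2 RPKM in input. Hint3, a nucleotide hydrolase, measured 363 and 257 RPKM in TRAP and 111 and 100.4 RPKM in input, and Cdkn2d, an inhibitor of cyclin D kinases, 9.83 and 9.21 RPKM in TRAP and 2.86 and 3.18 RPKM in input. Minos1, a core protein of the cristae junction complex, measured 500.4 and 451 RPKM in TRAP and 164 and 201 RPKM in input. The other two were 1700011J10Rik and 1110001A16Rik, both 2.803-fold to 2.85-fold higher.

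The difference between TRAP and input varied with the length of the transcript. Its median was 0.30 for the 1008 genes of 500 to 1000 bases, 0.12 for 2319 genes of 1000 to 2000 bases, -0.10 for 4002 genes of 2000 to 4000 bases, -0.28 for 2348 genes of 4000 to 8000 bases and -0.57 for 264 genes of at least 8000 bases. Of the shortest of these classes 30.4% were higher and 9.33% lower, and of the longest 0.379% were higher and 53.8% lower. The 583 genes under 500 bases did not continue the order, with a median of 0.02 and quartiles of -0.77 and 0.49. Per doubling of length, over 5144 genes of at least 500 bases and 5 RPKM, the difference fell by 0.15 in TRAP 1 and by 0.19 in TRAP 2. The difference between the banded inputs fell by 0.04, as did that between the banded TRAP libraries. Genes are not independent replicates, and these are descriptions.

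Level and length went together with the groups above. The median difference was -0.26 for 2377 genes with a mean under 2 RPKM and 0.37 for 781 genes of at least 100 RPKM, of which 44.2% were higher and 10.4% lower. The median length was 684 bases over the complex IV genes, 983 over complex I and 1219 over the mitochondrial ribosome. It was 3527 over the splicing regulators and 5172 over the matrix. With the length trend removed, the medians were 0.63, 0.45 and 0.40 for the former and -0.48 and -0.60 for the latter. Complex IV then had 11 genes higher, complex I 22 and the mitochondrial ribosome 37, and 19 splicing and 26 matrix genes were lower. Over all genes, 1045 were then higher and 1170 lower, so that 47.2% of calls were higher.

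**Figure D4:**
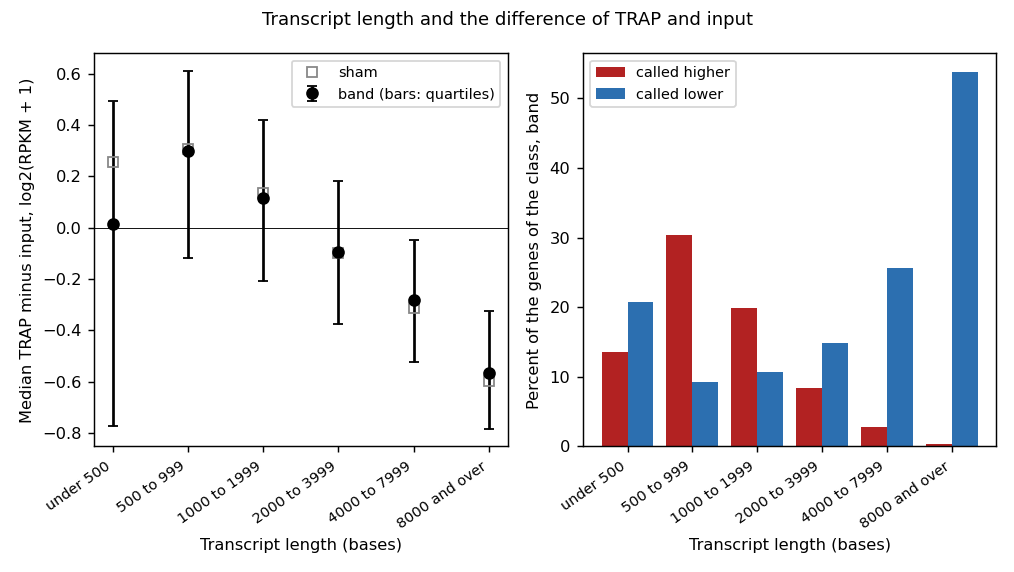
Left, median difference between TRAP and input on the log2(RPKM + 1) scale by class of transcript length for banded hearts (black, bars from the first to the third quartile) and sham hearts (open squares); right, percent of the genes of each class called higher (red) or lower (blue) in banded TRAP. The median falls from 0.30 at 500 to 1000 bases to -0.57 at 8000 bases and over, where 53.8% of genes were lower.

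The same comparison in sham hearts gave 2674 genes (25.4%) higher and 3794 (36.1%) lower by limma in the same fit. Its libraries varied less, with a median standard error of 0.0837 against 0.164 in banded hearts, so counts of calls do not compare the sizes of the differences. Of the genes higher after banding, 1213 were also higher in sham hearts, 97.0% of the banded and 45.4% of the sham list. Of the lower genes 1729 were shared, 95.8% of the banded and 45.6% of the sham list. Calls in opposite directions were 1 among the higher and 6 among the lower genes of banded hearts. Whether the difference between TRAP and input itself changed with banding was tested by the interaction, and 0 of 10524 genes (0%) passed in limma (smallest adjusted p = 0.13). At an unadjusted p under 0.05 there were 416 genes, and limma voom on recovered reads called 0, with 352 at that level. The median standard error of the interaction was 0.184, so small changes were not detectable with these libraries.

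The 15 genes with the smallest interaction p-values, none of which passed, were Spp1, Ptx3, Snhg9, Rps2, Rpl27 and 10 pseudogenes or gene models. Spp1 read 2.52 and 1.83 RPKM in TRAP and 14.2 and 11.97 in input after banding, and 0.244 and 0.286 and 0.964 and 0.984 RPKM after sham surgery, all 4 of these under 1 RPKM. Its interaction was -1.51 (SE 0.19, adjusted p = 0.19, limma), and with quantile normalization it passed at an adjusted p of 0.028. Adding 1 to each RPKM compresses the differences of such low values, in Spp1 and in Ptx3, a pentraxin of the acute phase (0.521 and 0.601 RPKM in TRAP and 2.76 and 2.79 RPKM in input after banding; 0.118 and 0.0373 RPKM and 0.3301 and 0.2204 RPKM after sham surgery). Snhg9, a small nucleolar RNA host gene, read 2.45 and 2.53 RPKM in TRAP and 16.8 and 14.96 in input after banding, and 20.8 and 17.6 and 23.9 and 28.6 RPKM after sham surgery. Rps2 was lower in TRAP of both operations, with 20.5 and 22.4 RPKM against 30.4 and 30.6 after banding and 40.4 and 38.3 against 98.02 and 98.01 after sham surgery. Rpl27 was higher in both, by 1.69 after banding and 0.69 after sham surgery. The others were ribosomal protein pseudogenes or models, Gm13772, Gm10222, Gm5566, Rpl21-ps11, Gm15285, Rps27a-ps2, Gm12254, Rpl23a-ps3, Gm16415 and Gm6265, whose interactions ran from -2.56 to -0.83.

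**Figure D5:**
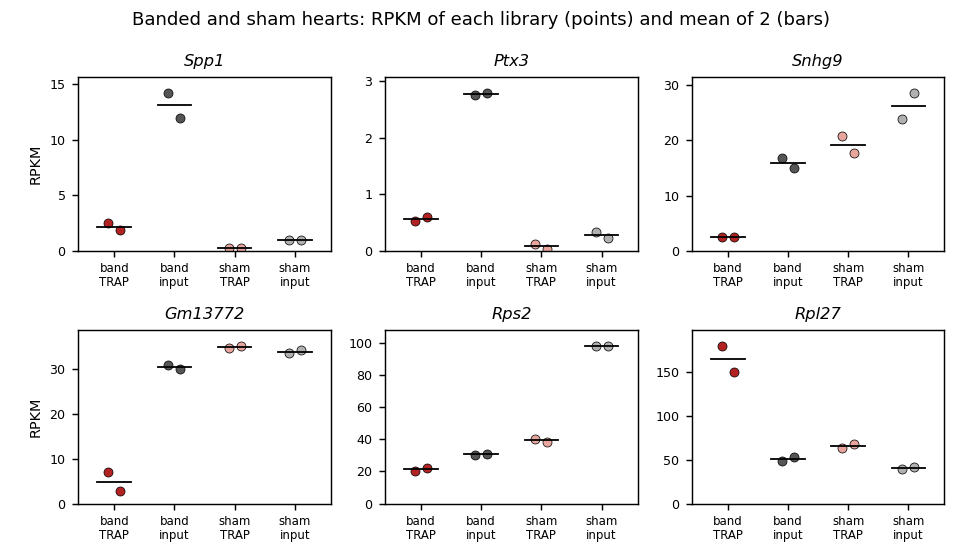
RPKM of each library (points) with the mean of 2 (bars) for 6 genes with small interaction p-values, in banded and sham hearts, each panel with its own linear axis from 0. Spp1 and Ptx3 lay higher after banding than after sham surgery in both fractions, with TRAP below input in each operation, Gm13772 was low only in banded TRAP, and the interaction was not called for any of them by limma.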

How the data were processed

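RNA was sequenced from 8 libraries of operated CAG hearts, 2 each of banded TRAP, banded input, sham TRAP and sham input, in a table of 12 libraries of a series with 53 samples. The columns were matched to libraries of the later deposit by name. RPKM values of 34306 genes, each with the length of 1 transcript, were deposited by the authors. CASAVA 1.8.2, TopHat 1.4, HTSeq 0.5.3 and the build NCBIM37 were used by the authors, per the submitters' processing notes. The order of these tools and the annotation are not given in the sources used here. No genome of that build was used, and genes carry the table's symbols. Whole reads could be recovered from RPKM and length, since 233410 of 233410 positive values came within 0.02 reads of a whole number. Totals over the 12 libraries ran from 26568988 to 94878619 reads. A count of 0 allows up to 3 reads (95% Poisson limit, counting error only).

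From these values, log2(RPKM + 1) was fitted with limma 3.58.1 in R 4.3.3 over the 8 libraries, with group means, a variance trend over the mean level and 1 variance weight per group (two-sided tests, 4 residual degrees of freedom, Benjamini-Hochberg adjustment over 10524 genes within a comparison). Genes were called at an adjusted p under 0.05. Fold changes are ratios of mean RPKM, and differences are on the log2(RPKM + 1) scale, which understates the change of low genes. Where 1 library was left out, the weights of the full fit were kept and the lone library was assumed to vary like its group. A run of the fit on simulated reads used 1 fixed spread per group and genes that varied independently. It held no set of genes that differ together between the banded TRAP libraries, so it is not used as support for the calls. The genes and lists were chosen with earlier results of these data known, and lists are described by counts and medians, with no test. Named genes were the 15 largest called differences in each direction at a mean of at least 5 RPKM, with groups that do not overlap and calls that hold without each banded library, the 15 smallest interaction p-values, Rpl10a, and genes of the lists. Alternatives covered the pseudocount (0.1 RPKM), the filter (above 0, or 5 RPKM), scaling (after leaving out mitochondrially encoded, haemoglobin and the 20 most abundant genes; quantile; centred), weights, the libraries fitted, a replicate block, limma voom on reads, and a length trend. Some genes counted within the lists are not reported here by name. Libraries of the first deposit were not analysed here.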

Additional observations from a re-analysis of the deposited data

Results flagged for a closer look

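In 6 genes the TRAP and input libraries separated in opposite directions after banding and after sham surgery, with no overlap in either. None of these interactions was called by limma in the fit reported (adjusted p = 0.13 to 1), so the difference between operations did not pass its test. Gm13772 measured 6.98 and 2.78 RPKM in TRAP and 30.97 and 30.02 RPKM in input after banding, and 34.6 and 35.2 RPKM in TRAP and 33.4 and 34.2 RPKM in input after sham surgery, an interaction of -2.56. Rpl21-ps11, a pseudogene of a ribosomal protein, measured 1.97 and 1.48 RPKM in TRAP and 6.27 and 6.74 RPKM in input after banding and had an interaction of -1.70. Gm15285 had an interaction of -1.56, Gm16415 of -0.94 and Gm6265 of -1.70. The calls after banding were lost without TRAP 2 for Gm15285 (adjusted p = 0.079, limma) and Gm6265 (0.12), and without each of the 4 banded libraries for Gm16415. Cetn2, a centrin, measured 25.1 and 6.05 RPKM in TRAP and 25.6 and 28.2 RPKM in input after banding, and 26.9 and 27.8 RPKM in TRAP and 25.2 and 26.3 RPKM in input after sham surgery, an interaction of -1.12, and was not called after banding. Reads of the gene models may be shared with near-identical genes.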

How the results depend on the processing

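The number of genes higher in banded TRAP, 1251 as reported, was 768 after rescaling without the most abundant genes, 1951 with no weights, 1950 over all 12 libraries with no weights, 1938 with the filter also set over 12 libraries (chosen after seeing the data), and 494 to 873 without 1 banded library. The number lower, 1804, was 921 at 5 RPKM, 2848 after rescaling, 1202 after quantile normalization, 1075 with centred libraries, 2845 with no weights, 2838 over 12 libraries, 3026 with the filter over 12, 1170 with the length trend removed, and 559 to 1506 without 1 banded library. At 5 RPKM, 54.4% of calls were higher. The interaction gave 0 genes, 2 lower with quantile normalization (Gm13772 and Spp1), and 0 to 17 lower without 1 library, 17 of them without banded TRAP 1 and 2 without banded TRAP 2. Sham hearts gave 2674 higher, and 1753 with no weights. With a replicate block the counts were 1089 higher and 1634 lower after banding, 2574 and 3649 after sham surgery, and 0 in the interaction. Library numbers are shared by TRAP and input, but no label says that they mark the same mice, and deviations of equal numbers correlated at 0.0327 (banded) and -0.208 (sham), so the numbers were not taken as pairs.

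Values that changed sign were those of Rpl10a (0.06 as reported; -0.11 rescaled, -0.0455 with length removed, -0.0023 without TRAP 1) and Ttn (0.12 with length removed). Nppa was 0.11 with centred libraries and ran from -0.83 to 0.72 with 1 library left out, Uqcrb from -2.37 to 1.17 and Rpl5 from -2.05 to 0.12. Of 57 list medians, 20 changed sign under at least 1 of 4 alternatives (8 rescaled, 9 by quantiles, 11 centred and 6 with length removed), and these ran from -0.19 to 0.13 as reported. They included those of cardiomyocyte markers (-0.034 rescaled, -0.059 by quantiles, -0.037 with length removed), endothelial markers (0.015 with length removed), adipocyte markers (0.066 by quantiles), the citric acid cycle (-0.056 rescaled, -0.055 by quantiles), ion channels (-0.058 rescaled), upstream reading frame genes (0.030 by quantiles), selenoproteins (-0.0675 rescaled) and muscle ubiquitin ligases (0.0053 by quantiles). The cause was not tested. Of 2017 pairs of a named gene and a setting other than leaving out a library, 1957 kept their direction and their side of the threshold.

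With 2 libraries a group, exact tests of single genes cannot reach 0.05, and all calls rest on a spread shared across genes. The banded libraries held 28621316 to 47591033 reads. Near 1 RPKM, genes around the median length of 2604 bases are limited more by the added 1 RPKM than by counting. This does not hold for short genes, such as the small RNA genes (median 125 bases), whose values near 1 RPKM rest on few reads. Gene models that overlap or copy others cannot be separated in these values.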

Other observations

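The pair of banded TRAP libraries differed most in a set of 330 genes that were higher in TRAP 1 than in TRAP 2 by more than 1 on the log2(RPKM + 1) scale. Uqcrb, a subunit of complex III, read 535 and 45.2 RPKM in banded TRAP, 195 and 289 in banded input and 161 and 368 in sham TRAP. Trdn, triadin of the calcium release complex, read 71.4 and 5.93 RPKM in banded TRAP and 80.8 and 93.7 in input. Nexn, an actin-binding protein of the Z disc, read 137 and 11.97 RPKM in banded TRAP and 197 and 220.03 in input, and Rpl5, of the large ribosomal subunit, 12.03 and 1.89 and 10.8 and 11.2. Cetn2, a centrin, read 25.1 and 6.05 RPKM in banded TRAP, 25.6 and 28.2 in input and 26.9 and 27.8 in sham TRAP. In the opposite direction, Tmsb10, an actin-binding thymosin, read 36.3 and 86.2 RPKM in banded TRAP against 104 and 100.3 in input, and Nppa 194 and 571.

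None of these 7 genes was called between TRAP and input (limma adjusted p from 0.051 to 0.94). Of the 330 genes, 4 were called higher and 32 lower in banded TRAP. In sham hearts, 301 of the 330 (91.2%) were lower in TRAP 1 than in TRAP 2, against 60.5% of all genes. Only 29 of the 330 differed by more than 1 between the sham TRAP libraries, and the median difference of the 330 there was -0.37. These genes were chosen after their values were seen, and the cause was not tested.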
